A study of Homo sapiens with 24 samples.

Results

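MDA-MB-175 and HCC1500 are human breast carcinoma cell lines that are both labelled estrogen receptor-positive (ER+), and they were compared here at baseline, in the 8 RNA-Seq profiles made at 5 mM glucose, out of 24 profiles in the series. Each line contributed 4 replicates kept in T25 flasks for 48 hours at 5 mM glucose, the control condition of a study on hyperglycemia. The study's methods give serum-free medium for its glucose experiments, and RPMI with serum for the routine growth of these lines. The remaining groups of the series were the same lines at 25 mM glucose and another ER+ line, ZR-75-30, at both glucose levels. Genes entered the comparison when their deposited value was at least 0.5 in at least 4 of the 8 samples, which kept 17420 of the 18889 genes listed. After 3 sex-linked genes were set aside, 17417 genes are described. A line stands for a single tumor here, and the labels do not say whether replicates were separate cultures, so p-values measure the spread between these samples and not the spread between tumors.

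Luminal breast cancers keep features of the hormone-responsive cells that line the milk ducts, among them low-molecular-weight keratins and the transcription factors FOXA1 and GATA3, which open chromatin for the estrogen receptor. The receptor, encoded by ESR1, is activated by estrogen and drives genes such as PGR (the progesterone receptor), GREB1 and TFF1. ERBB receptors are another growth input. ERBB2 and ERBB3 pair on the cell surface, and neuregulins such as NRG1 bind ERBB3 and ERBB4. MDA-MB-175 is known for a fusion of TENM4 with NRG1 that makes it secrete its own neuregulin.

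The values are a normalized signal per gene, each a whole number of reads multiplied by a single factor per sample, so that reads could be recovered. A sample of MDA-MB-175 held 9140024 to 15704613 recovered reads and a sample of HCC1500 13190982 to 17998819. The floor of 3 reads, the largest number treated as not detected, was worth 1.61 in MDA-MB-175 and 1.13 in HCC1500 on average. Samples of a line resembled each other closely (the lowest Pearson r across 13449 genes was 0.989 in MDA-MB-175 and 0.995 in HCC1500), while samples of different lines correlated at 0.633 to 0.638. By chi-square of reads per degree of freedom, MDA-MB-175 replicate 4 stood further off, at 7.69, 4.26 and 5.80 against replicates 1, 2 and 3. Pairs among those 3 replicates were at 2.18 to 3.45, and pairs in HCC1500 at 1.89 to 2.85. The 13 mitochondrial genes with an MT- symbol took 3.99% ± 0.29 (SD, n = 4) of the signal in MDA-MB-175 and 4.14% ± 0.20 in HCC1500 (exact two-sided permutation test, p = 0.486). The difference of -0.15 percentage points was -0.03 without MDA-MB-175 replicate 2 and -0.24 without its replicate 1. This share left out a mitochondrial ribosomal RNA gene listed as MIR4485 (chrM:1671-3229). That gene was at 10620 ± 591 in MDA-MB-175 and 51121 ± 1296 in HCC1500, so the share does not describe all mitochondrial RNA. The 100 most abundant genes took 18.6% ± 0.42 and 17.0% ± 0.16, with no overlap (exact permutation p = 0.0286, the smallest that 70 assignments allow).

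Both lines expressed epithelial markers. All 8 luminal markers examined (EPCAM, CDH1, KRT8, KRT18, KRT19, GATA3, FOXA1 and ESR1) were expressed in every sample, and their summed value was 54270 to 64553 in MDA-MB-175 and 32482 to 34196 in HCC1500. Of the markers of other cells, the immune genes CD14 and CSF1R together reached at most 4.18 in any sample. The endothelial genes CDH5 and VWF summed to 61.5 to 77.7 in MDA-MB-175 and to at most 1.53 in HCC1500. The fibroblast genes COL1A1, COL3A1, DCN and LUM summed to 98.7 to 117 in MDA-MB-175 and 265 to 294 in HCC1500, most of it COL1A1 (75 ± 6.32 and 241 ± 12.2). TP63, a basal marker, was at 9.94 ± 1.78 and 0.927 ± 0.438. PTPRC, CD3D, PECAM1, KRT5 and KRT14 were looked up but had no single entry among the 18889 genes listed, so no value is given.

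The lines differed at most genes. With limma on log2(value + 1) and a Benjamini-Hochberg adjusted p under 0.05, 14352 genes (82.4%) differed, 6777 higher in MDA-MB-175 and 7575 higher in HCC1500. Because a test alone called so many, genes are counted below only when they also differed at least 2-fold, unless stated otherwise. This held for 7531 genes (43.2%), of which 3616 were higher in MDA-MB-175 (20.8% of all tested) and 3915 in HCC1500 (22.5%). Which line held more of them depended on scaling and tool: the MDA-MB-175 part of the 2-fold genes was 48.0% here, 44.2% with scaling to equal totals, 51.0% with median-of-ratios scaling, 50.5% with edgeR and 51.4% with DESeq2. Scaling to equal totals, here and below, made all values smaller before 1 was added. It therefore also shrank differences of low genes, and its effect is not one of scaling alone. A direct limma test against a 2-fold difference (treat) called 5529 genes. Those shares are the background against which each gene group below is read. All 4 samples of one line lay beyond all 4 of the other for 13454 genes (77.2%). Very large differences leaned to MDA-MB-175: 1110 genes differed at least 16-fold, and 737 of them were higher in MDA-MB-175 against 373 in HCC1500. The median difference over all genes was -0.07 (log2, MDA-MB-175 minus HCC1500, as throughout), and the median standard error (SE) was 0.098. In whole cultures, fewer cells expressing a gene and less RNA per cell cannot be told apart.

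**Figure D1:**
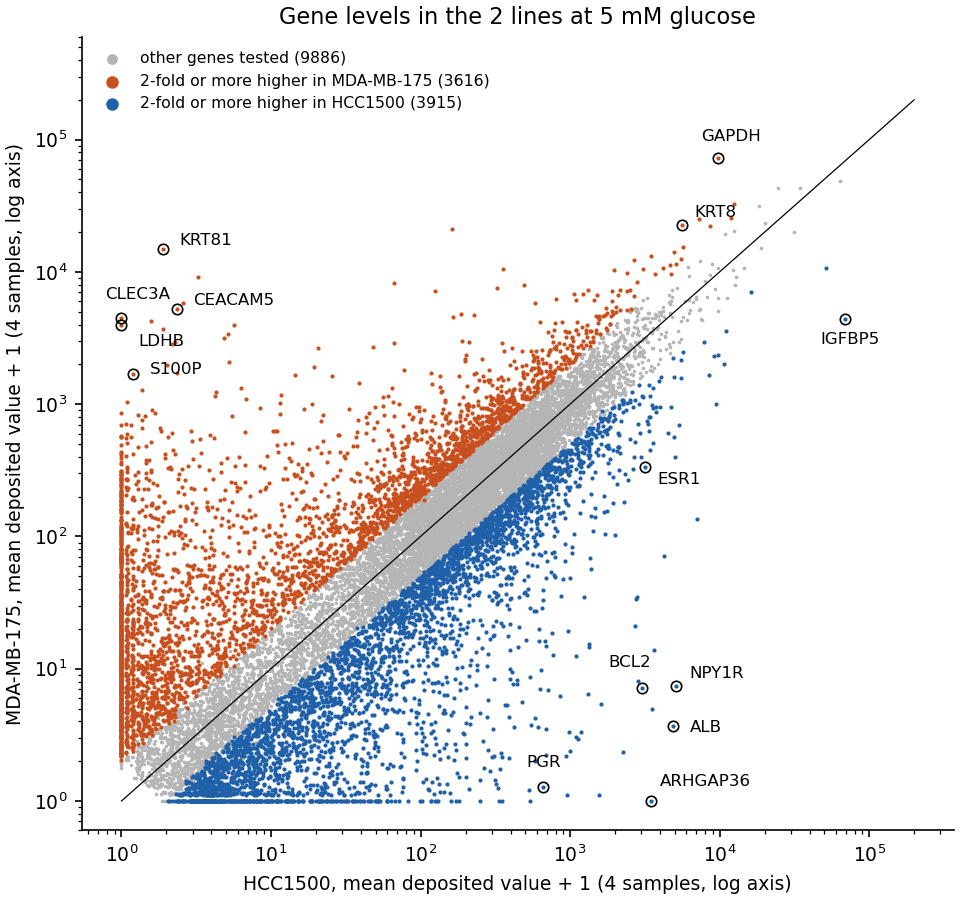
Mean deposited value plus 1 of each of the 17417 genes in HCC1500 (horizontal, log axis) and MDA-MB-175 (vertical, log axis), each the mean of 4 samples at 5 mM glucose. Orange points were called at least 2-fold higher in MDA-MB-175 (3616) and blue points in HCC1500 (3915); circled genes are described in the text, and KRT81 and ARHGAP36 stand near the edges, at 14834 against 0.897 and at 0 against 3490.

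The estrogen and progesterone receptor genes separated the lines despite their shared ER+ label. ESR1 (6q, GRCh37 chr6:151977826-152450754) read 335, 338, 337 and 330 in the 4 MDA-MB-175 samples and 3180, 3133, 3179 and 3221 in HCC1500. The groups did not overlap, and the log2 difference was -3.24 ± 0.03 (SE; limma adjusted p = 7.92e-15). ZR-75-30, the third ER+ line, stood between them at 618 ± 20.3 (SD, n = 4). PGR, a classical target of the receptor, was at 624, 650, 657 and 689 in HCC1500, whereas MDA-MB-175 had 2 reads in all 4 samples together against 7003. The ratio of the means was 2446, with a 95% counting interval of 677 to 20198.

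The transcription factors that accompany the receptor differed less. GATA3 was at 1388, 1372, 1341 and 1214 in MDA-MB-175 and at 3658, 3591, 3540 and 3495 in HCC1500 (-1.43 ± 0.04). FOXA1 was near equal, at 2252 ± 87.2 and 2723 ± 63.3, a log2 difference of -0.27 ± 0.03 that was called but was under 2-fold. Among 25 luminal transcription factors and hormone receptors, 7 were at least 2-fold higher in MDA-MB-175 and 8 in HCC1500, with a median of -0.21. The largest differences toward MDA-MB-175 were those of TFAP2B, ELF5, KLF5 and EHF. TFAP2B, an AP-2 family factor, was at 1036 ± 56.3 with a single read in HCC1500, a ratio of 10811 with a 95% counting interval of 1940 to 427007. ELF5, the master factor of milk-secreting alveolar cells, was at 236 ± 22.4 with a single read in HCC1500. The epithelial factors KLF5 (995 ± 18.2 against 71.3 ± 6.6) and EHF (1135 ± 63.9 against 190 ± 10.6) were also higher there. On the HCC1500 side, CITED1, a coactivator that binds the estrogen receptor, was at 543 ± 33.1 against 2.75 ± 0.88, and TFAP2C, another AP-2 factor, at 2091 ± 77.6 against 472 ± 19.4.

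Estrogen-induced genes mostly leaned to HCC1500, the line with more ESR1. Of 31 genes on this list, 20 were at least 2-fold higher in HCC1500 and 5 in MDA-MB-175, and their median was -1.64 against -0.07 for all genes. SERPINA1, which encodes the protease inhibitor alpha-1-antitrypsin, was at 3467, 3620, 3520 and 3601 in HCC1500 and at 5.62, 2.68, 3.99 and 3.56 in MDA-MB-175. Its relatives SERPINA3 (2834 ± 86.7 against 7.09 ± 1.27) and SERPINA5 (1617 ± 46.2 against 4.38 ± 2.68) had the same direction. These SERPINA genes lie together on chromosome 14 (GRCh37 chr14:94843084-95090392), so the count is not one of independent loci. BCL2, the anti-apoptotic protein, was at 3035 ± 25.0 in HCC1500 and 6.13 ± 1.55 in MDA-MB-175, a log2 difference of -8.76 ± 0.14. GREB1, a receptor cofactor chosen after its value was seen, was at 1339 against 14.3.

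The 5 genes higher in MDA-MB-175 were TFF1, TFF3, CTSD, AGR2 and the potassium channel gene KCNK5 (35.5 ± 2.87 against 14.9 ± 1.49). TFF1, the trefoil peptide often used as a marker of receptor activity, was higher in the line with less ESR1: it read 2734, 2429, 2560 and 2241 in MDA-MB-175 and 715, 726, 751 and 715 in HCC1500 (1.77 ± 0.05, adjusted p = 4.45e-11). Its neighbor TFF3 was at 13189 ± 1615 against 3453 ± 164. CTSD, a lysosomal protease, was at 10324 ± 1266 against 1960 ± 101, and AGR2, an endoplasmic reticulum chaperone for mucins, at 9851 ± 331 against 2400 ± 65.6. CCND1, which encodes cyclin D1, was at 6402 ± 157 in MDA-MB-175 and 11246 ± 184 in HCC1500, a log2 difference of -0.81 ± 0.03 that did not reach 2-fold.

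The ERBB family was divided between the lines. In MDA-MB-175, NRG1 read 146, 162, 150 and 169, and in HCC1500 it read 2.66, 2.86, 3.07 and 2.58, a log2 difference of 5.38 ± 0.12 (adjusted p = 3.57e-12). The lines did not overlap. TENM4, whose 5′ part is known to be joined to NRG1 in MDA-MB-175, was also higher in that line, at 453 ± 30.0 against 52.1 ± 7.66. Gene-level values do not show whether reads came from the fused or the normal genes.

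Of the receptors, ERBB2 was at 4966, 4681, 4857 and 4185 in MDA-MB-175 and 1446, 1562, 1461 and 1536 in HCC1500 (1.63 ± 0.05). ERBB3, its signaling partner, was nearly level at 2608 ± 20 and 2399 ± 38.9; the log2 difference of 0.12 ± 0.03 (adjusted p = 0.00119) became -0.00 when samples were rescaled to equal totals, so its direction depended on the scaling. ERBB4 and EGFR were opposed. ERBB4 was at 196 ± 11.5 in HCC1500 and 2.20 ± 1.27 in MDA-MB-175, while EGFR was at 191 ± 12.7 in MDA-MB-175 and had 2 reads in HCC1500, a ratio of 1090 with a 95% counting interval of 302 to 9003.

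The EGFR ligands did not follow EGFR as a group. EGF was higher beside the receptor, at 270 ± 15.4 against 11.9 ± 2.25. AREG, or amphiregulin, an estrogen-induced EGFR ligand of the mammary gland, read 4342, 4250, 4306 and 4214 in HCC1500, where EGFR was at or near 0, and 66.6, 70.4, 60.4 and 82.9 in MDA-MB-175 (-5.92 ± 0.08). BTC (109 ± 5.22 against 33.1 ± 5.37) and HBEGF (16 ± 3.20 against 5.07 ± 3.71) were also higher in HCC1500. In all, 6 of 18 ERBB receptors, ligands and regulators were at least 2-fold higher in MDA-MB-175 and 4 in HCC1500, with a median of 0.07.

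**Figure D2:**
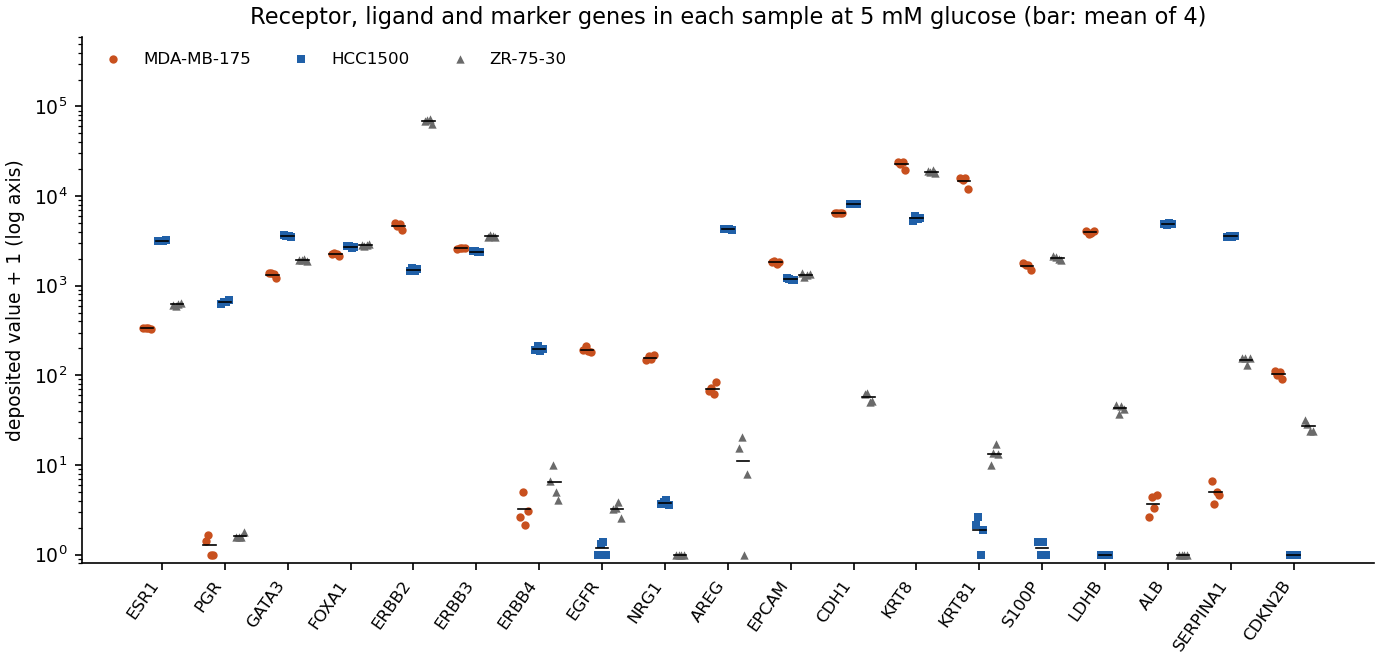
Deposited value plus 1 (log axis) of receptors, ligands and other described genes in each sample at 5 mM glucose, orange circles for MDA-MB-175 and blue squares for HCC1500, with 4 points a line and a bar at the mean; gray triangles are the 4 low-glucose samples of ZR-75-30. The points of a line nearly coincide at high values: ESR1 spans 330 to 338 in MDA-MB-175 and 3133 to 3221 in HCC1500, while ERBB3 lies close together in both lines at 2608 and 2399.

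Among 29 other growth factor receptors, 9 were at least 2-fold higher in MDA-MB-175 and 11 in HCC1500 (median 0.05, below 0 with scaling to equal totals). The ephrin receptors EPHA4 (152 ± 11.3 against 2.12 ± 0.70) and EPHA2 (254 ± 29.1 against 4.77 ± 1.05) were higher in MDA-MB-175. HCC1500 was higher for IGF1R, the receptor of insulin-like growth factors, at 2127 ± 41.5 against 318 ± 8.13, and for the neurotrophin receptors NTRK2 (111 ± 5.70 against 0.243 ± 0.288) and NTRK3 (16.9 ± 0.91 against 1.08 ± 0.78).

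Keratins gave the largest difference of any gene. KRT81, a hair-type keratin on 12q (chr12:52679697-52685318), read 16089, 15175, 15951 and 12120 in MDA-MB-175 and 1.14, 1.59, 0 and 0.861 in HCC1500, a log2 difference of 13.01 ± 0.24 (adjusted p = 7.77e-13). KRT86, whose annotated span on the other strand contains that of KRT81, was at 9208 ± 1066 against 2.23 ± 1.30. In the annotation used, KRT81 shared no exon bases with other genes. RP11-259K21.3, which could not be placed on a chromosome here, was at 4248 ± 489 against 0.570 ± 0.390. Whether reads were divided among KRT81, KRT86 and RP11-259K21.3 was not tested. The ordinary luminal keratins were present in both lines and higher in MDA-MB-175: KRT8 at 22515 ± 2212 against 5623 ± 279, KRT18 at 10536 ± 815 against 3065 ± 194, and KRT19 at 15485 ± 1605 against 5694 ± 349. KRT15, a keratin of progenitor cells, was at 912 ± 71.2 against 15.7 ± 1.85. Of 16 keratins tested, 13 were at least 2-fold higher in MDA-MB-175 and 2 in HCC1500 (KRT32 at 3.15 ± 1.86 against 0.611 ± 0.493, and KRT83 at 7.37 ± 1.17 against 3.06 ± 1.40), with a median of 2.32 (4.05 among genes at values of at least 10).

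Basal and myoepithelial markers leaned the same way: 15 of 22 were at least 2-fold higher in MDA-MB-175 and 3 in HCC1500 (median 2.50, or 1.25 with scaling to equal totals). The basal keratins KRT5 and KRT14, which had no single entry, were not among these 22. ITGB4, the integrin of hemidesmosomes, was at 1719, 1703, 1756 and 1338 in MDA-MB-175 and at 27.4, 28.9, 21.9 and 20.2 in HCC1500 (6.0 ± 0.12). LAMA3, a laminin subunit, had the opposite direction (750 ± 15.6 in HCC1500 and 52.5 ± 1.69 in MDA-MB-175), as did ITGA6, the partner of ITGB4 (483 ± 19.4 and 95.9 ± 9.31). Of 24 luminal epithelial markers, 11 were at least 2-fold higher in MDA-MB-175 and 3 in HCC1500 (median 0.66), the first led by KRT23, MUC1, KRT7 (5843 ± 542 against 578 ± 31.1) and the tight-junction claudin CLDN4 (6842 ± 718 against 1221 ± 30.5).

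Among cell adhesion genes, CDH1, or E-cadherin, was at 6498 ± 11.1 in MDA-MB-175 and 8223 ± 41.4 in HCC1500, a log2 difference of -0.34 ± 0.02, and EPCAM was at 1818 ± 53.8 and 1179 ± 32.5. The gap junction gene GJA1 (connexin 43) was at 1157, 1156, 1207 and 1204 in HCC1500 and at 0.803, 0.670, 5.69 and 2.03 in MDA-MB-175. GJB2 (connexin 26) had the opposite direction, at 65.9 ± 2.92 in MDA-MB-175 and no read in HCC1500. CLDN1 likewise was at 74.3 ± 3.78 in MDA-MB-175 with no read in HCC1500, at least 65.5-fold higher. DSC2, a desmosomal cadherin, was higher in HCC1500 (647 ± 26.9 against 27.6 ± 2.08). Of 30 claudins and junction proteins, 12 were at least 2-fold higher in MDA-MB-175 and 5 in HCC1500 (median 0.49).

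Mesenchymal genes were divided as well, with 12 of 28 at least 2-fold higher in MDA-MB-175, 8 in HCC1500 and a median of 0.49 (0.23 to 2.29 over the settings tried). VIM, the vimentin filament, was low in both lines, at 14.2 ± 4.18 and 0.617 ± 0.537; MDA-MB-175 replicate 3 read 7.97 and the other 3 replicates 16.1 to 16.8. S100A4, a calcium-binding protein tied to motility, was at 1154 ± 79.7 against 3.24 ± 0.77. On the other side, HCC1500 expressed CDH2, or N-cadherin (311 ± 17.2 against 7.29 ± 1.70), and MMP14, a membrane-bound collagenase, which read 649, 725, 682 and 692 against 0.803, 1.34, 1.71 and 1.02. The transcription factor SNAI1 was at 19.8 ± 2.74 in HCC1500 and 1.54 ± 0.54 in MDA-MB-175.

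The S100, CEACAM, mucin and mammary secretory lists leaned to MDA-MB-175. Of 14 S100 family genes, 12 were at least 2-fold higher in MDA-MB-175 and none in HCC1500, with a median of 4.60. S100A16 read 6238, 5813, 6030 and 5128 in MDA-MB-175 and 0.380, 1.27, 1.15 and 3.44 in HCC1500 (11.27 ± 0.27). S100A14 was at 2961 ± 206 against 1.28 ± 0.55, and S100P, a luminal calcium-binding protein, at 1679 ± 121 with 2 reads in HCC1500. S100A9, a subunit of calprotectin, was at 863 ± 48.3 with no read in HCC1500, at least 761-fold higher. Most of these genes lie together on 1q, so the count is not one of independent loci.

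The CEACAM adhesion glycoproteins, which are carcinoma surface antigens, had the same direction. CEACAM5 read 5304, 5077, 5404 and 5130 in MDA-MB-175 and 0.380, 1.27, 1.15 and 2.58 in HCC1500, and CEACAM6 was at 1713 ± 55.1 against 1.34 ± 1.68. In this family 5 of 6 genes were at least 2-fold higher in MDA-MB-175 and none in HCC1500 (median 3.77). Close relatives on 19q share sequence, and reads may be divided between them. Mucins, the gel-forming and membrane glycoproteins of glands, had 11 of 14 genes at least 2-fold higher in MDA-MB-175 and 2 in HCC1500 (median 1.34, from 0.86 with scaling to equal totals to 3.19 with DESeq2). MUC1 was at 4840 ± 295 against 185 ± 20.2, MUC20 at 612 ± 33.2 against 36.8 ± 5.89, and MUC2 at 163 ± 15.3 against 0.710 ± 0.600. MUC19 (26.2 ± 6.94 against 2.53 ± 1.20) and MCAM, an adhesion molecule also named MUC18 (21.8 ± 2.89 against 3.70 ± 2.44), were higher in HCC1500.

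Genes of the secreting mammary epithelium had the same direction, with 9 of 15 at least 2-fold higher in MDA-MB-175 and 2 in HCC1500 (median 3.84). SCGB2A2, or mammaglobin, read 2875, 2799, 2820 and 2816 against 0.760, 1.59, 2.30 and 0. PIP, the prolactin-induced protein, was at 417 ± 20.8 against 0.943 ± 0.249, and LCN2, an iron-scavenging lipocalin, at 151 ± 5.77 against 0.0959 ± 0.192. The prolactin receptor gene PRLR was higher in HCC1500, at 2186 ± 43.2 against 748 ± 65.6, as was its signal transducer STAT5A, at 10.2 ± 3.61 against 2.10 ± 0.55. Outside these lists, BPIFB1, a secreted protein of airway and glandular epithelium, was at 21288 ± 1337 against 161 ± 9.67, and UPK3B, a uroplakin, at 3693 ± 532 against 0.897 ± 0.870.

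Several of the largest differences toward HCC1500 were in genes of secreted proteins. ALB, which encodes serum albumin and is a liver gene, read 4931, 4802, 5000 and 4901 in HCC1500 and 1.61, 3.35, 2.28 and 3.56 in MDA-MB-175, a log2 difference of -10.41 ± 0.15 (adjusted p = 1.51e-13). SERPINA6, or corticosteroid-binding globulin, was at 1570 ± 68.5 with 1 read in MDA-MB-175, a ratio of 15648 with a 95% counting interval of 2809 to 618054. IGFBP5, which binds insulin-like growth factors, had the largest difference in deposited values: 69348, 71342, 67653 and 69319 in HCC1500 and 4460, 4455, 4572 and 4148 in MDA-MB-175. PRSS23, a secreted serine protease, was at 9472 ± 138 against 1011 ± 34.5.

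Others were in receptor, signaling and adhesion genes. ARHGAP36, an activator of Hedgehog signaling on Xq (chrX:130192320-130223859), read 3368, 3593, 3483 and 3516 in HCC1500 and had no read in MDA-MB-175, so that it was at least 2165-fold higher. NPY1R, a neuropeptide Y receptor, read 5172, 5111, 5223 and 5075 against 7.62, 4.02, 6.26 and 7.63. IGSF1, an immunoglobulin superfamily membrane protein, was at 2264 ± 33.4 against 1.34 ± 1.55, and PCDH10, a protocadherin, at 958 ± 51.0 against 0.10 ± 0.20. AGTR1, the angiotensin II receptor, was at 350 ± 15 with no read in MDA-MB-175, at least 217-fold higher.

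Neuroendocrine and neuronal genes did not favor a line as a group: 6 of 15 were at least 2-fold higher in each, and the median was 0.08. HCC1500 expressed SYT1, a synaptic vesicle calcium sensor (2724 ± 52.4 against 20.1 ± 1.90), the neuroendocrine transcription factor INSM1 (75.5 ± 2.28 against 0.482 ± 0.721) and TUBB3, a neuronal tubulin (500 ± 39.4 against 36.8 ± 8.20). MDA-MB-175 expressed CALB2, or calretinin (153 ± 15.4 against 1.05 ± 0.42), SYP, or synaptophysin (355 ± 24.8 against 42.4 ± 2.56), and CHGB, a granule protein (31.2 ± 3.96 with no read in HCC1500).

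Both lines were at 5 mM glucose, and isoenzymes of glycolysis are given here with their relatives. Lactate dehydrogenase is built from A and B subunits. LDHB (GRCh37 chr12:21788276-21910791) read 4045, 3810, 3882 and 4082 in MDA-MB-175 and had no read in any of the 4 HCC1500 samples, so that it was at least 3488-fold higher. LDHA, chosen after its value was seen, was at 3307 in MDA-MB-175 and 2225 in HCC1500. Among phosphofructokinases, PFKP, the platelet isoform, was at 333, 310, 293 and 249 in MDA-MB-175 with no read in HCC1500, at least 261-fold higher. The liver and muscle isoforms, also chosen after their values were seen, were expressed in both lines, PFKL at 842 ± 101 and 1345 ± 96.9 and PFKM at 352 ± 14.6 and 206 ± 9.03.

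GAPDH, often used as a constant reference, was not constant here: it read 78738, 70299, 75926 and 68146 in MDA-MB-175 and 9322, 10067, 9832 and 9924 in HCC1500, a log2 difference of 2.90 ± 0.05. ACTB, another common reference, was at 25065 ± 1966 against 7326 ± 226, whereas its relative ACTG1 was higher in HCC1500 (16231 ± 640 against 7022 ± 549). The lactate transporter gene SLC16A1 was at 190 ± 3.89 in HCC1500 and 9.39 ± 0.45 in MDA-MB-175, and the neuronal enolase ENO2 at 576 ± 10.5 and 98.0 ± 7.40. Among 35 genes of glycolysis and glucose uptake, 13 were at least 2-fold higher in MDA-MB-175 and 7 in HCC1500, with a median of 0.58. TXNIP, a glucose-responsive gene, was at 1939 ± 51.6 and 2556 ± 67.8, a log2 difference of -0.40 ± 0.03.

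Genes of cell division leaned to MDA-MB-175. Of 37 proliferation genes, 17 were at least 2-fold higher in MDA-MB-175 and none in HCC1500 (median 0.92). MKI67 read 3049, 3225, 3348 and 3398 in MDA-MB-175 and 799, 739, 737 and 769 in HCC1500 (2.09 ± 0.04, adjusted p = 1.53e-12). CCNA2, the S-phase cyclin, was at 772 ± 32.3 against 147 ± 9.43, and CEP55, a protein of the last step of cell division, at 355 ± 27.6 against 86.3 ± 4.46. The list was not uniform. By adjusted p alone, 28 of its 37 genes were called higher in MDA-MB-175 and 6 in HCC1500, the 6 at under 2-fold. Of all 17417 genes, 6777 and 7575 were called so.

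Of 23 cyclins, CDKs and inhibitors, 5 were at least 2-fold higher in MDA-MB-175 and 3 in HCC1500 (median 0.16). CCNE1, or cyclin E1, was at 143 ± 10.3 against 24.6 ± 3.0, and CDK6 at 368 ± 36.0 against 93.5 ± 10.5. CDKN1B, the p27 inhibitor, was higher in HCC1500 (1329 ± 8.23 against 466 ± 21.7). The inhibitors CDKN2B and CDKN2A had no read in HCC1500 and are described with their chromosomal neighbors below. By adjusted p alone, 52 of 55 cytosolic ribosomal protein genes were called higher in MDA-MB-175 and none in HCC1500, beside 6777 and 7575 of all 17417 genes. Of these 52, 27 differed at least 2-fold, and the median of the list was 0.99. RPSA was at 6673 ± 332 against 1511 ± 56.2 and RPS12 at 2107 ± 34.8 against 563 ± 22.7.

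DNA repair genes had the smallest share of 2-fold genes among the lists. Only 10 of 58 (17.2%) differed at least 2-fold, 5 in each direction, beside 43.2% of all genes, and the median was 0.10 (-0.02 with scaling to equal totals). BRCA1 read 392, 416, 383 and 414 in MDA-MB-175 and 280, 281, 278 and 278 in HCC1500, a log2 difference of 0.52 ± 0.04. BRCA2 was at 139 ± 17.7 against 71.0 ± 7.79 (0.96 ± 0.10). OGG1, a base excision glycosylase, was higher in HCC1500 (187 ± 10.6 against 58.9 ± 15.1).

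Interferon-stimulated genes were split evenly, with 14 of 44 at least 2-fold higher in each line and a median of -0.21. LGALS3BP, a secreted glycoprotein, was at 2123 ± 264 in MDA-MB-175 and 197 ± 14.3 in HCC1500. IFI35 was at 124 ± 7.44 in HCC1500 with no read in MDA-MB-175, at least 76.8-fold higher. Antigen presentation genes had 9 of 21 higher in MDA-MB-175 and 4 in HCC1500 (median 0.45). The largest differences in the first group were those of the class II genes HLA-DMA and CD74, with HLA-DMA at 73.1 ± 7.35 against 1.03 ± 0.14 and CD74 at 44.1 ± 10.4 against 0.963 ± 0.511. The 4 genes higher in HCC1500 were the peptidase ERAP2 (137 ± 5.40 against 17.0 ± 2.23), TAPBP, or tapasin (1308 ± 44.1 against 580 ± 58.9), and the stress-induced ligands MICA (247 ± 13.2 against 100 ± 12.3) and MICB (329 ± 22.1 against 105 ± 11.7).

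HOX genes, which pattern the body axis, had 13 of 21 higher in MDA-MB-175 and 4 in HCC1500 (median 1.64, from 0.41 at values of at least 10 to 4.46 with edgeR). The 4 leading genes of MDA-MB-175 belonged to the HOXB cluster: HOXB2 (216 ± 22.2 against 15 ± 1.28), HOXB7 (47.5 ± 10.4), HOXB13 (27.2 ± 5.46) and HOXB6 (16.5 ± 4.32), the last 3 with no read in HCC1500. All 4 higher in HCC1500 belonged to the HOXC cluster, led by HOXC5 (18.1 ± 3.37 against 2.66 ± 1.57). HOXC8, at 3.77 ± 0.63 against 1.36 ± 1.06, was near the limit of the call. Imprinted genes, expressed from 1 parental copy, were divided too (6 and 8 of 20, median -0.53). H19 was at 105 ± 15.7 with 2 reads in HCC1500, and IGF2, its neighbor, at 55.4 ± 8.06 against 0.299 ± 0.200. GRB10, an adaptor of the insulin receptor, was at 890 ± 21.9 in HCC1500 and 47.0 ± 11.2 in MDA-MB-175.

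Enzymes that process hormones and foreign compounds differed often: of 39 glutathione transferases, aldo-keto reductases and related enzymes, 19 were at least 2-fold higher in MDA-MB-175 and 11 in HCC1500 (median 0.78). The median was 0.24 without MDA-MB-175 replicate 2, 0.29 with scaling to equal totals and 1.21 with DESeq2. CYP1B1, which hydroxylates estradiol, read 3240, 3411, 3329 and 3500 in MDA-MB-175 and 2.66, 2.54, 5.75 and 5.6 in HCC1500. HSD17B2, which oxidizes estradiol to estrone, was at 353 ± 18 with no read in HCC1500. CYP4B1 was at 1344 ± 35.7 in HCC1500 and 13.6 ± 1.42 in MDA-MB-175, and UGT2B15, which conjugates androgens, at 117 ± 8.06 and 2.79 ± 0.81.

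Stem cell and plasticity genes were divided between the lines, 8 of 20 higher in MDA-MB-175 and 7 in HCC1500 (median 0.82). Of those used as markers of breast cancer stem cells, ALDH1A3, an aldehyde dehydrogenase, was at 699 ± 21.2 in MDA-MB-175 with 2 reads in HCC1500, and PROM1 (CD133) at 111 ± 4.17 against 0.419 ± 0.609. CD44, the hyaluronan receptor, read 1245, 1244, 1252 and 1247 in HCC1500 and 33.7, 28.8, 37.6 and 34.6 in MDA-MB-175 (-5.18 ± 0.07). Of 9 cancer-testis genes tested, 3 were higher in MDA-MB-175 and 5 in HCC1500 (median -1.52), all at values under 50, the highest being MAGEC1 in MDA-MB-175 (25.6 ± 3.47 against 0.0794 ± 0.159) and BRDT in HCC1500 (41.8 ± 3.78 against 2.27 ± 0.79). The marker lists of other cell types were short after the filter: of 4 immune genes tested, LYZ alone was at least 2-fold higher, in MDA-MB-175 (8.99 ± 2.72 against 0.696 ± 0.672), and of 13 endothelial and fibroblast genes, 6 were higher in MDA-MB-175 and 1 in HCC1500 (median 0.38 in both lists).

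**Figure D3:**
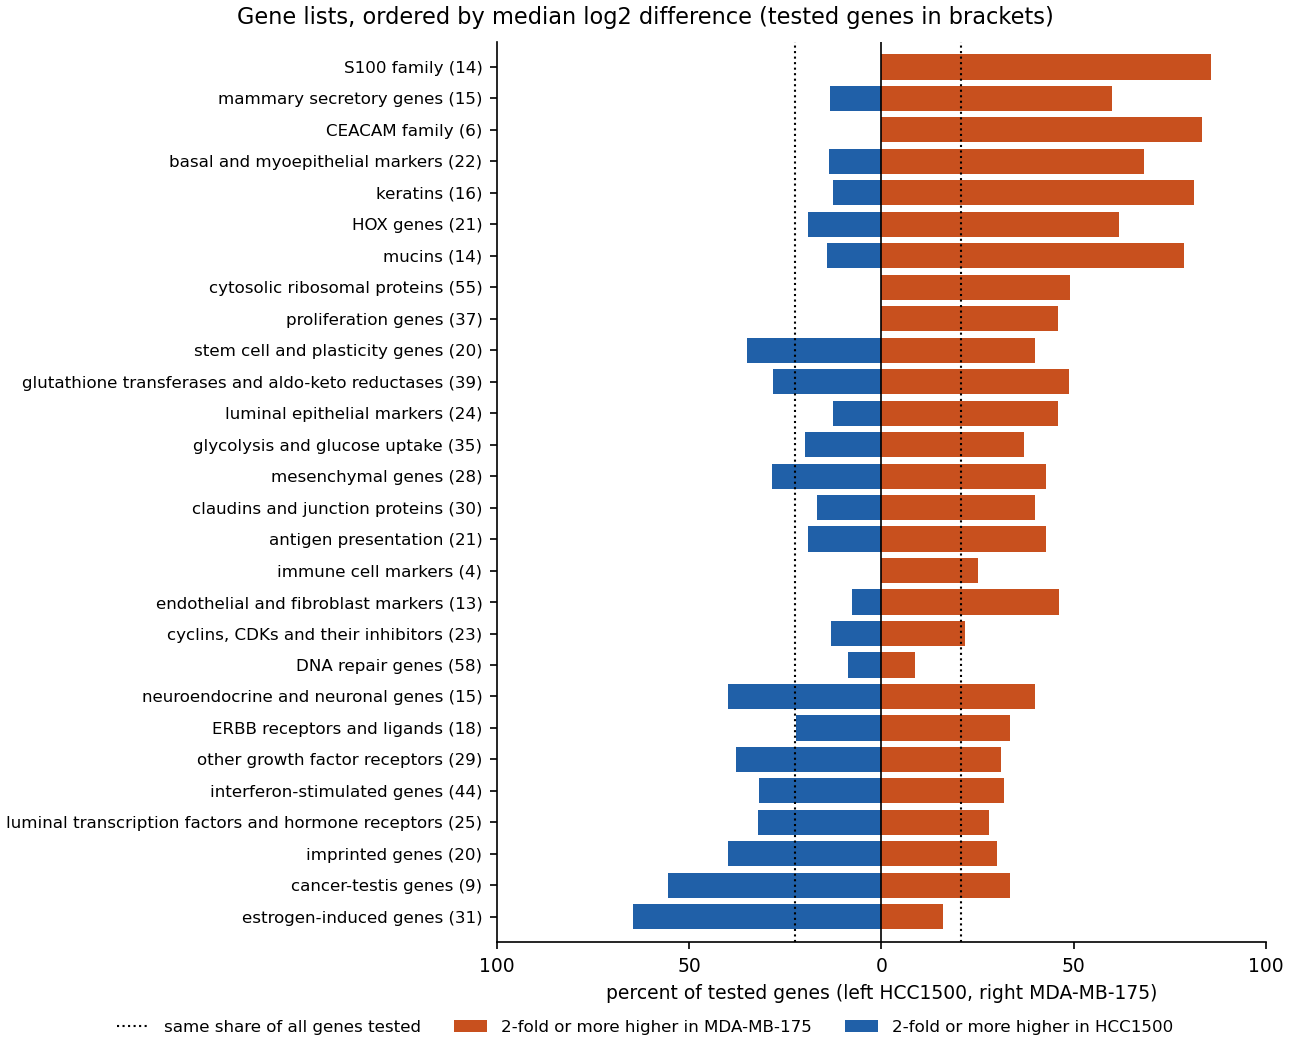
Percent of each list's tested genes (number in brackets) that were at least 2-fold higher in MDA-MB-175 (orange, to the right of 0) or in HCC1500 (blue, to the left), with dotted lines at the shares of all genes, 20.8% and 22.5%. Lists are ordered by their median log2 difference, from 4.60 for the S100 family to -1.64 for estrogen-induced genes; DNA repair genes have short bars on both sides.

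A gene was described as on in a single line when every sample of that line was at 20 or more and every sample of the other had at most 3 reads. By this description 373 genes (2.14%) were on in MDA-MB-175 only and 140 (0.804%) in HCC1500 only. The other line had no read at all for 195 and 54 of them. The largest in MDA-MB-175 was CLEC3A, a cartilage-type lectin (chr16:78056412-78100658), at 4422, 4560, 4410 and 4656 there and 0 in each HCC1500 sample (at least 3979-fold). RP11-259K21.3 (4248 ± 489 against 0.570 ± 0.390), LDHB and S100P came next. In HCC1500 the largest were ARHGAP36, SERPINA6 and PCDH10. By level, the MDA-MB-175 group also held ADCY5, an adenylyl cyclase (1275 ± 82.0 against 0.377 ± 0.314), and GPR110, an adhesion receptor (833 ± 20.1 against 0.283 ± 0.194). In HCC1500 C1orf173 was at 541 ± 20.9 with no read in MDA-MB-175 (at least 335-fold), and VSTM2A, a secreted regulator of fat cell formation, at 535 ± 17.2 against 0.201 ± 0.401.

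ZR-75-30 was examined for the same genes. Of the 373 genes on in MDA-MB-175 only, it had 148 on (39.7%) and 142 off (38.1%) by the same limits. Of the 140 on in HCC1500 only, it had 5 on (3.57%) and 101 off (72.1%). Over all 17417 genes ZR-75-30 had 61.1% on and 16.1% off, and over the 12609 genes at 20 or more in every sample of at least 1 of the lines compared, 82.8% and 5.12%.

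The promoters of such genes vary in content of CG, the dinucleotide that DNA methylation acts on, and 5 are shown. LDHB, S100P and RASSF1 were off in HCC1500 and PGR in MDA-MB-175. ALB was near but not at the limit for off in MDA-MB-175, at 2.70 and 20 reads over the 4 samples. Each is the 250 bases before a start listed in RefSeq (GRCh38.p14), 5′ to 3′ on the gene's strand, with every CG in capitals. PGR had 3 listed starts and the other genes 1 each. A listed start need not be the main start of a gene, and which starts these lines use was not tested.
LDHB: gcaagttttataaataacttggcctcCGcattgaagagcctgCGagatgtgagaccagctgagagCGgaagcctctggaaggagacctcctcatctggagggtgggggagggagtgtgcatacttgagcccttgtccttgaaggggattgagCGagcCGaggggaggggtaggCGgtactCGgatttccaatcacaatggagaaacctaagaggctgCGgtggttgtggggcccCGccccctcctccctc
S100P: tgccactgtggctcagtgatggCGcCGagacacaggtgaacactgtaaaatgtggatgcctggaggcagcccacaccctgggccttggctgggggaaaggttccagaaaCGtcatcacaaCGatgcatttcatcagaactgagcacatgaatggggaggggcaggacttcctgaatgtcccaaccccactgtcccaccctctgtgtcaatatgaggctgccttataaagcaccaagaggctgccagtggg
RASSF1: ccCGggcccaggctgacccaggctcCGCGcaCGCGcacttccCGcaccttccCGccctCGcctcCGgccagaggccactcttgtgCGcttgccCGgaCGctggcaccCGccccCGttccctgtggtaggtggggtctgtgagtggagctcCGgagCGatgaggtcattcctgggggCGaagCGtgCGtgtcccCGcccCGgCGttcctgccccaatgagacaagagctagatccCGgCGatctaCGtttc
PGR: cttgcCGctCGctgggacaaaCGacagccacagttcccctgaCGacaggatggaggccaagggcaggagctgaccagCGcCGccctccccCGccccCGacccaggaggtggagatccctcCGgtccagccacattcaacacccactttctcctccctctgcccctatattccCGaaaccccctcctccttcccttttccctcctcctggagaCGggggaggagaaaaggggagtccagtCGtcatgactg
ALB: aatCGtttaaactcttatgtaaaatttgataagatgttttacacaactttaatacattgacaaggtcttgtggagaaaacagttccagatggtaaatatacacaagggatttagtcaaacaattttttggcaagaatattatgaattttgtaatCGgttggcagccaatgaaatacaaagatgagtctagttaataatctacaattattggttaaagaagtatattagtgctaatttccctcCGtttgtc
These windows lie at chr12:21657843-21658092 (minus strand), chr4:6693628-6693877 (plus), chr3:50337451-50337700 (minus), chr11:101129064-101129313 (minus) and chr4:73404037-73404286 (plus). They hold 9, 4, 25, 12 and 3 CG.

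Over all genes with a window in RefSeq, the median was 22 CG per 250 bases (12162 of 17417 genes). It was 20 for the genes on in MDA-MB-175 only (257 of 373) and 17 for those on in HCC1500 only (89 of 140), against 23 for genes at 20 or more in every sample of at least 1 line (9785 of 12609), which is the fitting reference for expressed genes. Windows with 5 or fewer CG made up 17.1% and 23.6% of the genes on in a single line, 4.44% of expressed genes and 8.34% of all. The letters TATAAA were searched on the gene's strand in the last 50 bases before any listed start. They occurred in 5.84% and 6.74% of the first groups, in 2.15% of expressed genes and in 2.55% of all, and S100P holds a match. Genes with more listed starts had more chances of a match. These are counts of letters, and methylation was not measured.

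Several genes off in HCC1500 were neighbors. Among 12441 placed genes at 20 or more in every sample of at least 1 line, 105 of the genes on in MDA-MB-175 only stood directly next to another such gene, in 43 runs, and 21 of the genes on in HCC1500 only did so, in 10 runs. How many would do so by position alone was not computed. Genes below that level were passed over, so members of a run can lie far apart. The runs and genes named here were chosen after their values were seen, and coordinates are GRCh37. The longest was on 3p (chr3:50355221-50541675) and held 8 genes: HYAL2, TUSC2, RASSF1, ZMYND10, NPRL2, CYB561D2, TMEM115 and CACNA2D2. RASSF1, a Ras-association scaffold, was at 132 ± 11.9 in MDA-MB-175, and the 8 genes ranged from 76.9 (ZMYND10) to 313 (TMEM115) there. In HCC1500 the run had a single read over the 4 low-glucose samples, in CACNA2D2, and no read over the 4 high-glucose samples. On either side HCC1500 had reads. HYAL1, before the run, was at 30.3 ± 1.52 in HCC1500 and 3.90 ± 1.14 in MDA-MB-175. The gene directly after it, C3orf18, was at 9.60 ± 1.84 and 50.8 ± 11.3, and the next, HEMK1, at 86.4 ± 6.64 and 100 ± 10.7.

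Further stretches had no read in HCC1500 at either glucose level. On 9p (chr9:21329664-22009304) they were KLHL9 (296 ± 7.90 in MDA-MB-175), MTAP, the methionine salvage enzyme (275 ± 11.5), CDKN2A, which encodes p16 (15.9 ± 2.29), CDKN2B, which encodes p15 (102 ± 8.32), and the noncoding MIR31HG (1.29 ± 0.60). The next gene on one side, PTPLAD2, was at 35.9 ± 5.47 in HCC1500. On the other side DMRTA1 and ELAVL2 also had no read in HCC1500, at 11.8 ± 2.45 and 18.3 ± 2.67 in MDA-MB-175, and TUSC1 was at 45.8 ± 6.53.

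On 22q (chr22:39101747-39190203) the genes without a read were GTPBP1 (430 ± 41.6 in MDA-MB-175), SUN2, a nuclear envelope protein (693 ± 57.5), and DNAL4 (216 ± 8.50). JOSD1 before them and NPTXR after them were at 340 ± 10.6 and 553 ± 26.4 in HCC1500. On Xq (chrX:102470036-102633092) they were BEX4 (200 ± 6.29), TCEAL8 (434 ± 32.6), BEX2 (24.5 ± 6.80) and NGFRAP1 (568 ± 21.4). Directly beyond them RAB40A was low in both lines, with 1 read in HCC1500 and 24 in MDA-MB-175, and TCEAL4 after it was at 656 ± 26.3 and 616 ± 7.80. ZR-75-30 expressed the genes of all 4 stretches except MIR31HG, from 6.13 (CDKN2A) to 767 (SUN2). RNA values do not tell a lost gene from a silent one, and gene copy number was not analysed here.

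**Figure D4:**
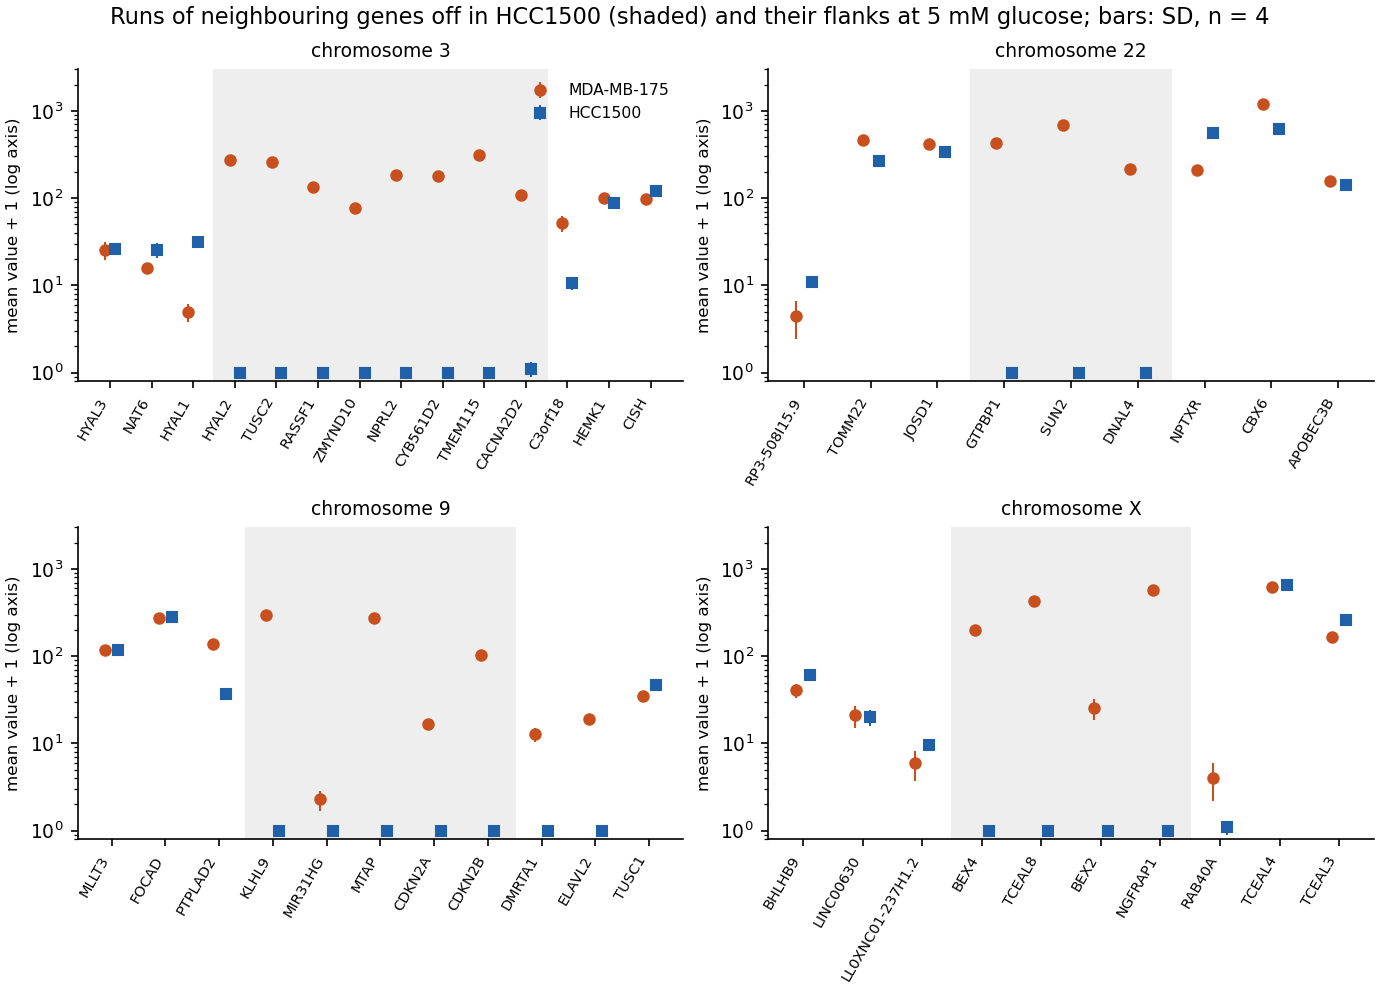
Mean deposited value plus 1 (log axis, bars SD, n = 4) of the genes in 4 stretches on 3p, 9p, 22q and Xq, in chromosomal order, in MDA-MB-175 (orange) and HCC1500 (blue), with flanking genes outside the shading. Within the shading HCC1500 lies at 0 reads apart from a single read in CACNA2D2, while flanking genes such as HEMK1 (86.4), JOSD1 (340) and TCEAL4 (656) are expressed.

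Other runs lay on 1q, 17q and 11p. On 1q, FLG, IVL, SPRR1A, SPRR3 and S100A9, of the epidermal differentiation cluster, were on in MDA-MB-175 only, with 1 read over the run in HCC1500 against 9737. On 17q, SLFN5, SLFN11, SLFN12 and SLFN13 of the Schlafen family had 4 reads in HCC1500 against 7320, and on 11p, H19, IGF2 and ASCL2 had 8 against 1453. In HCC1500 the longest run was FGF10, a fibroblast growth factor of mammary development (59.0 ± 1.78 with no read in MDA-MB-175), with 2 noncoding RNAs.

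Differences were unevenly spread over chromosomes. By median log2 difference, chromosome 13 (0.84), chromosome 15 (0.66) and chromosome 10 (0.46) lay toward MDA-MB-175, and chromosome 18 (-1.15), chromosome 16 (-0.60) and chromosome 19 (-0.41) toward HCC1500. On chromosome 18, 55.6% of 250 genes were at least 2-fold higher in HCC1500, BCL2 and CDH2 among them, beside 22.5% of all genes, and 8.80% were higher in MDA-MB-175. On chromosome 13, 40.9% of 276 genes were at least 2-fold higher in MDA-MB-175 and 8.70% in HCC1500. These chromosomes were picked as the extremes, and no test was made.

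In 410 windows of 5 Mb with at least 15 genes, 238 had a median within 0.5 of 0, 22 were at 1 or above and 22 at -1 or below. In the window from 85 to 90 Mb of chromosome 11, 18 of 21 genes were at least 2-fold higher in HCC1500 and none in MDA-MB-175 (median -1.70), among them PRSS23 and SYTL2, a vesicle-docking protein (2529 ± 43.0 against 543 ± 32.8). The window from 70 to 75 Mb of chromosome 4, which holds ALB, had a median of -1.78, and the ankyrin-repeat gene ANKRD17 there was at 3412 ± 23.2 against 1152 ± 55.9. At the other end, the window from 25 to 30 Mb of chromosome 15 held UBE3A, a ubiquitin ligase (875 ± 38.1 against 489 ± 9.80), and the imprinted SNURF (623 ± 23 against 0.836 ± 1.22).

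The 8 profiles of the same lines at 25 mM glucose shared no sample with those above. Of the 7531 genes that differed at least 2-fold at low glucose, 7420 were also tested at high glucose, 7339 of these (98.9%) had the same direction, and 6163 (83.1%) were again called at least 2-fold, beside 7455 of 17190 genes (43.4%) tested at both levels. HCC1500 high-glucose replicate 3 stood apart, with a value sum of 7319781 against 5559394 to 5604083 in the other 3 replicates of its group. Without it, 6251 genes were again called. Of the genes on in a single line, 307 of 373 and 89 of 140 met the same limits at high glucose (313 and 96 without that replicate).

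The largest differences persisted. KRT81 was at 12104 ± 893 in MDA-MB-175 and 0.124 ± 0.249 in HCC1500 at high glucose, LDHB at 3749 ± 90.2 and 0.115 ± 0.231, and ARHGAP36 at 0 and 4200 ± 597. ALB was at 2424 ± 710 in HCC1500 and 1.08 ± 0.37 in MDA-MB-175 at high glucose. Its line difference changed by 0.25 ± 0.27, which was not called (limma interaction, adjusted p = 0.618). For ESR1 the gap widened from -3.24 to -3.79, a change of -0.55 ± 0.12 (adjusted p = 0.00648), with MDA-MB-175 at 258 ± 3.66 and HCC1500 at 3616 ± 550.

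A direction that reversed was rare. Called at least 2-fold at both levels and in opposite directions were 3 genes: DLX2, PSG9 and RP11-66B24.2. DLX2, a homeobox factor, was at 8.86 ± 3.95 in MDA-MB-175 and 1.36 ± 0.64 in HCC1500 at low glucose, and at 4.93 ± 1.37 and 11.6 ± 1.41 at high glucose. PSG9, a pregnancy-specific glycoprotein of the CEACAM superfamily, had no read in MDA-MB-175 at low glucose beside 4.27 ± 0.58 in HCC1500, and was at 111 ± 9.0 and 13.6 ± 4.95 at high glucose. The change in its line difference was 5.39 ± 0.28 (limma interaction, adjusted p = 1.55e-08). Over all 17417 genes, the line difference changed with glucose for 2631 (15.1%), or for 6195 (35.6%) without HCC1500 high-glucose replicate 3, so this count depended on that library.

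**Figure D5:**
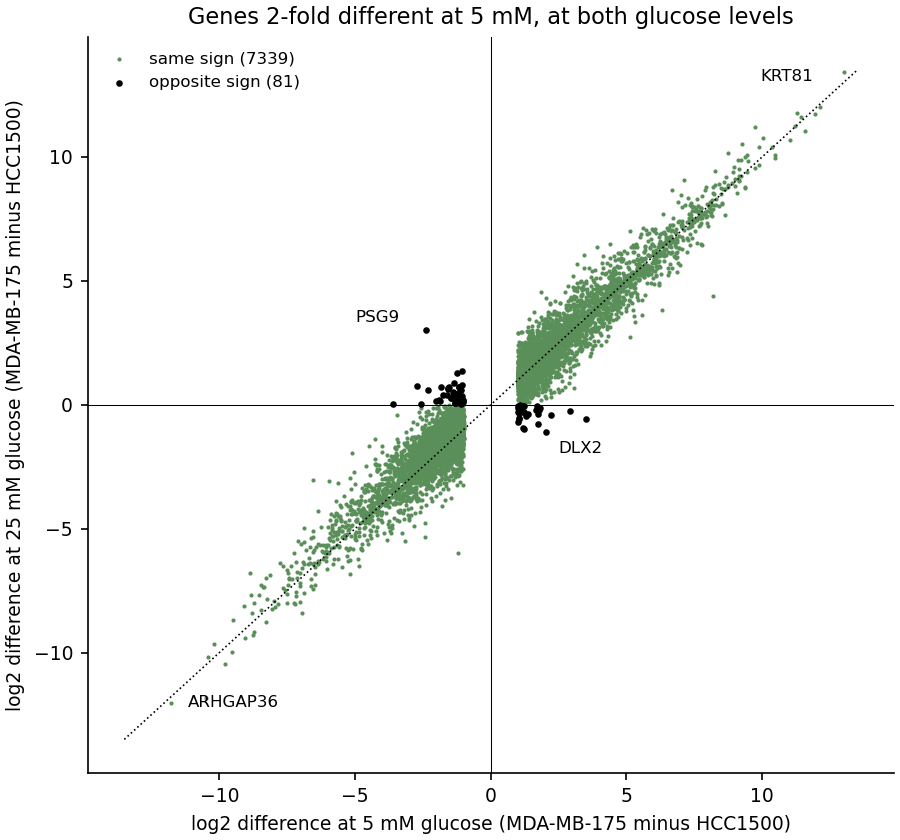
Log2 difference between the lines (MDA-MB-175 minus HCC1500) at 5 mM glucose (horizontal) and at 25 mM glucose (vertical) for the genes called at least 2-fold at 5 mM and tested at both, with a line of equality. Most points lie along the line (98.9% have the same sign); DLX2 and PSG9 lie in the quadrants of opposite sign, at 2.03 and -1.11 and at -2.39 and 3.0.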

How the data were processed

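RNA-Seq was done on an Illumina HiSeq. The authors deposited a normalized signal per gene for 18889 Ensembl gene IDs, in a unit the labels do not give. The labels name hg38 and edgeR, and the study's methods, written for tumors, name hg19 and Ensembl v70, so the build of these files is not settled. Every value was a whole number of reads (tolerance 0.01) times 1 factor per sample, whose origin was not identified. For 9 rows with a split symbol, values were read from the end of the row. Samples were grouped by title and treatment label, 4 per group. Genes reaching 0.5 in 4 or more of the 8 samples were compared with limma 3.58.1 (R 4.3.3, intensity trend) on log2(value + 1), which understates differences of low genes, with Benjamini-Hochberg adjustment over all genes. This scale also sets which genes differ 2-fold. Recovered reads, rather than values, set the floor of 3 reads and the bounds on folds against 0, and intervals on ratios cover counting error only. edgeR 4.0.16 and DESeq2 1.42.0 on recovered reads were alternatives. The script for the fits was tested on simulated data with known changes. Coordinates came from GENCODE 44 on GRCh37 (18183 gene IDs matched, 96.3%, and 142 more by symbol), and promoters from RefSeq GRCh38.p14, by symbol. Where a gene had several starts, CG was counted in the window richest in CG, and TATAAA counted if any start had a match. Whether counting used strand is not given in the sources used here, so overlapping genes are uncertain. Named genes were a fixed panel, the 10 largest differences each way, the 8 highest genes on in a single line each way, the 8 largest differences in value each way, up to 4 members of each list each way, and 3 genes in each extreme window. The comparison, the 28 gene lists and these rules were chosen with earlier results of these data known. Genes named in runs, markers of other cells, GREB1, KCNK5, LDHA, PFKL and PFKM were chosen after their values were seen, and 3 sex-linked genes were left out. Some genes that these rules name are not reported here.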

Additional observations from a re-analysis of the deposited data

Results flagged for a closer look

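Within-group spread was checked for the 206 genes named in the report, in 337 groups of 4 replicates, with 75 further groups at or near 0 left out. In 16 groups the highest or lowest replicate stood apart from the other 3 by more of the group's range than Dixon's test at the 95% level allows. Chance alone flags about 1 group in 20.

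In MDA-MB-175, replicate 4 was lowest for CLDN4 (5776 against 7078 to 7325), ITGB4 (1338 against 1703 to 1756) and UPK3B (2904 against 3851 to 4019). Replicate 3 was lowest for VIM (7.97 against 16.1 to 16.8), BTC (25.1 against 34.9 to 36.2) and ITGA6 (82.0 against 99.1 to 101). Replicate 1 was highest for HEMK1 (116 against 93.4 to 95.6), replicate 2 for SLC16A1 (10.1 against 9.11 to 9.23) and replicate 4 for CEP55 (396 against 339 to 343).

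In HCC1500, replicate 3 was highest for AGR2 (2498 against 2357 to 2377), CEACAM6 (3.83 against 0.318 to 0.760), HOXB2 (16.9 against 14.2 to 14.4) and JOSD1 (356 against 334 to 337), and lowest for BCL2 (2998 against 3042 to 3051) and MUC20 (28.0 against 38.8 to 40.7). Replicate 2 was lowest for SLC16A1 (184 against 191 to 192).

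The line difference was compared between glucose levels for 9 genes with a limma interaction over the 16 samples, adjusted over all genes. It differed for ESR1 (a change of -0.55, adjusted p = 0.00648), DLX2 (-3.14, adjusted p = 9.63e-05) and PSG9 (5.39, adjusted p = 1.55e-08). Without HCC1500 high-glucose replicate 3 the adjusted p was 8.85e-10, 2.24e-05 and 6.01e-11. DLX2 and PSG9 had been picked because their direction reversed. It was not called for KRT81, CLEC3A, LDHB, ARHGAP36, ALB and PGR, except that PGR had an adjusted p of 0.0345 without that replicate.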

How the results depend on the processing

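The counts of differing genes held within 1.5 times under each alternative run. Over pseudocounts of 0.1, 0.5 and 5, other filters, 2 other scalings, an adjusted p under 0.01, limma without a trend or with sample weights, a fit on all 24 samples, edgeR and DESeq2, called genes ran from 11981 (values of at least 10) to 14521 (no filter), and genes at least 2-fold apart from 5569 (values of at least 10) to 7796 (edgeR or a pseudocount of 0.1). Limma's treat test against a 2-fold difference called 5529. Leaving out each sample in turn gave 13943 to 14379 called genes and 7501 to 7541 at least 2-fold apart. edgeR shared 7366 of the 2-fold genes and DESeq2 7285. Scaling to equal totals lowered the values before the same pseudocount of 1 was added, so it also acted as a larger pseudocount would. It gave 5719 genes at least 2-fold apart, against 5866 with a pseudocount of 5 and 7529 with median-of-ratios scaling. List medians under that setting carry both changes, which were not separated.

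Replicate numbers did not pair the samples: deviations of same-numbered samples correlated from -0.11 to 0.05 (mean -0.03) across 13449 genes. A fit with the replicate block called 14160 genes, 7542 of them at least 2-fold, and 7527 of these were shared with the fit without the block.

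The number of genes on in a single line followed its limits. With a level of at least 5 in place of 20 it was 1045 (706 in MDA-MB-175 and 339 in HCC1500), with at least 10 it was 216 in HCC1500, and with at least 50 it was 291 (227 and 64). With at most 1 read in the other line HCC1500 had 84, and with at most 10 reads the number was 841, 298 of them in HCC1500. Leaving out a sample gave 525 to 546 genes.

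Chromosome medians under other settings were added after the data were seen. For chromosome 18 the median of -1.15 was -1.26 with a pseudocount of 0.1, -1.22 with 0.5, -0.91 with 5, -1.0 with scaling to equal totals, -1.07 with median-of-ratios scaling and -1.18 with edgeR, and from -1.17 to -1.09 when a sample was left out. The leave-one-out differences in composition were also added then. They kept their direction, but the difference of -0.15 percentage points in genes with an MT- symbol varied. It ranged from -0.24 without MDA-MB-175 replicate 1 to -0.03 without its replicate 2, and was -0.10 without its replicate 3 and -0.05 without HCC1500 replicate 1.

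Of 5215 recomputed differences for 238 named genes, 5210 kept direction and call. ERBB3 turned to -0.00088 with scaling to equal totals (adjusted p = 0.98) and was not called in the fit on all 24 samples (adjusted p = 0.177). HOXC8 was not called with a pseudocount of 0.1, with DESeq2 or at an adjusted p under 0.01. List medians were less stable: 200 of 587 recomputed medians moved by more than the spread between replicates, and 21 of the 28 lists moved over 1.5 times under at least 1 setting, 6 of them when a single sample was left out. Lists not named below or in the report with such a change ranged from 2.29 (no filter) to 4.11 for mammary secretory genes, 2.65 to 6.07 (edgeR) for CEACAM, 3.31 to 6.95 (values of at least 10) for S100, -0.33 (scaling to equal totals) to -0.14 for luminal factors, -1.62 to -0.85 (equal totals) for cancer-testis, 0.04 (equal totals) to 0.24 for cyclins, 0.49 (equal totals) to 0.91 for stem cell, -0.55 to -0.26 (no filter) for imprinted, 0.18 (equal totals) to 2.26 (values of at least 10) for endothelial and fibroblast genes and 0.00 (equal totals) to 0.48 (values of at least 10) for ERBB genes. The interferon median of -0.21 was -0.33 without HCC1500 replicate 1 and -0.14 without its replicate 4, the endothelial and fibroblast median of 0.38 was 0.58 without HCC1500 replicate 4, and the ERBB median of 0.07 was 0.13 without MDA-MB-175 replicate 1 or 3. The immune list had no gene left at values of at least 10. The list medians of other growth factor receptors, DNA repair, immune and neuroendocrine genes changed sign under at least 1 setting (to -0.41 and -2.55 for growth factor receptors and neuroendocrine genes at values of at least 10). The growth factor receptor median was -0.14 without MDA-MB-175 replicate 3, -0.04 without HCC1500 replicate 1 and -0.02 without HCC1500 replicate 4, and the neuroendocrine median -0.16 without MDA-MB-175 replicate 1 and -0.11 without HCC1500 replicate 1 (with highest values of 0.19 and 0.30, both without MDA-MB-175 replicate 2), so no direction is given for those lists; the cause was not tested. Depth limits statements on genes near 3 reads, where a read more or less decides the call.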
